A study of Mus musculus with 24 samples.

Results

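Endothelial cells line the vessels of the liver, and 10 genes that mark their kinds were followed here, of the 19290 genes measured. They were chosen by name: Lyve1, Stab1, Stab2 and Clec4g mark the endothelium of the sinusoids, Cd34, Plvap and Vwf mark capillary-type and large-vessel endothelium, and Pecam1, Kdr and Cdh5 are shared by most endothelial cells. RNA from mouse liver was hybridised to single-colour Agilent arrays, 4 arrays in each of 6 groups, or 24 in all. The groups were untreated females labelled WT, untreated females labelled dKO, and treated females and treated males of both genotypes. No untreated males were among the samples. The series title names Foxa1 and Foxa2, and dKO is read here as the loss of both. The labels give no Cre driver, strain or age at collection, nor whether the WT mice carried floxed alleles. Treated mice received diethylnitrosamine (DEN, 20 mg per kg) to start tumours when 14 to 15 days old, followed by TCPOBOP, an activator of the nuclear receptor CAR that drives liver tumours on, at 3 mg per kg in 8 injections 2 weeks apart. The labels call the tissue of every group liver tumor, the untreated ones included, and the extraction protocol speaks of liver samples as well as sorted cells. Neither the share of tumour in each sample nor whether any sample was of sorted cells is known.

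The endothelium of the liver sinusoid is thin, pierced by open pores and lies on almost no basement membrane. Its cells clear waste from the blood through scavenger receptors and lectins, which is what the sinusoidal genes of the set encode, and they supply hepatocytes with Wnt and BMP ligands. In scarred livers and in many liver tumours this lining is known to lose such receptors and to take on the markers and the basement membrane of ordinary capillaries, a change called capillarization. Foxa1 and Foxa2 are transcription factors of the hepatocyte and bile duct lineages.

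All 10 genes were measured, and the probe used for each was well above background on 24 of 24 arrays, with no saturated spot on any array. Levels are given as log2 of the array's processed signal minus that array's 75th percentile, so they compare groups for 1 gene and not genes with each other. A level in the RNA of a whole sample counts fewer cells of a type and less RNA per cell alike, and the 2 cannot be told apart. Nothing in the labels says that the 4 replicates of a group were separate animals, so each p-value reflects only how much these samples vary, which may be technical. As a check of the genotype labels, the Foxa1 probe was well above background on 0 of 4 arrays in each dKO group and on 4 of 4 in each WT group. The probe for Foxa2 was at a level of 3.69 to 4.45 in the WT group means and of -6.06 to -3.99 in the dKO group means. It was well above background on 4 of 4 arrays in each WT group, and still on 3 of 4 in untreated dKO females, 2 of 4 in treated dKO females and 2 of 4 in treated dKO males. Between 50.4% and 68.4% of spots were well above background per array, with the highest group mean, 67.2%, in the treated dKO females. In that group replicates 2 and 4 stood apart from replicates 1 and 3 in Lyve1 and Pecam1, and for the 10 genes and the list counts the fit with replicates 1 and 3 alone is given beside the results that rest on that group. Values of single genes from the lists are from all 4 arrays.

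RefSeq (GRCm38.p6) gave a promoter for 5 of the 10 genes: Stab1, Stab2, Clec4g, Cd34 and Kdr. The 250 bases before the start site are shown for Clec4g and Stab2, sinusoidal genes that were lower in treated dKO than in treated WT females, and for Cd34, which was higher, so that their sequences can be read side by side. Capitals mark the letters AGGAAG on either strand, a form of the core bound by ETS-family factors, which many endothelial genes carry.
Clec4g: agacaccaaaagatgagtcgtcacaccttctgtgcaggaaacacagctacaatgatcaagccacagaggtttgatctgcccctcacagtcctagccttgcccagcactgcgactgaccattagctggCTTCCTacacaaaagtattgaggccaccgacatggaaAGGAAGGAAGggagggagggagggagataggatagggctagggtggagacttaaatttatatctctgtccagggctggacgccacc
Stab2: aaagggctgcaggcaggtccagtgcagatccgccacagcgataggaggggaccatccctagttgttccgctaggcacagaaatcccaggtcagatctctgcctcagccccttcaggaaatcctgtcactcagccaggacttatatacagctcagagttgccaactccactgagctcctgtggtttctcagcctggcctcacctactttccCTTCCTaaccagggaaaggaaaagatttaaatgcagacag
Cd34: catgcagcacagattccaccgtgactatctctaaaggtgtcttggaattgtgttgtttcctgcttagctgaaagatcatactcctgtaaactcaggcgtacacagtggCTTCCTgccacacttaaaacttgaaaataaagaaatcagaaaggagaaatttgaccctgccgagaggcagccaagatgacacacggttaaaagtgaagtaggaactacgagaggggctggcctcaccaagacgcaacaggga
They lie at chr8:3720652-3720901 on the minus strand, chr10:87007943-87008192 on the minus strand and chr1:194938571-194938820 on the plus strand, each printed 5′ to 3′ towards its gene. Clec4g held 3 such matches, beginning 123, 86 and 82 bases before the start, with the last 2 overlapping, and Stab2 and Cd34 held 1 each, at 40 and 142 bases. The same letters stood in 29.5% of all 32851 promoter windows of this length. The core bound by GATA factors, spelled AGATAA, was in none of the 5 windows, against 9.99% of all windows. A core of forkhead factors, spelled TGTTTAC, was also in none, against 3.17%, with both strands searched. Kdr held none of the 3 motifs.

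Between the genotypes, 5 of the 10 genes passed the test in treated females at an adjusted p under 0.05, against 29.8% of all genes called. In treated males 2 of 10 passed, against 25.2%, and in untreated females 2 of 10, against 9.74%. A set of 10 is small, and the count in treated males was below its background share; nothing particular to the set is read from these counts. In treated females Cd34 and Plvap were higher in dKO (2 of 10, against 13.4% of all genes called higher), and Clec4g, Kdr and Stab2 were lower (3 of 10, against 16.4%). In treated males Cd34 was higher (1 of 10, against 14.4%) and Lyve1 lower (1 of 10, against 10.9%). In untreated females Cd34 and Vwf were higher (2 of 10, against 5.15%) and 0 of 10 were lower (against 4.59%). The genotypes did not overlap for 3 of the 10 genes in treated females (21.5% of all genes), for 1 in treated males (28.5%) and for 3 in untreated females (22.6%). The comparisons of genotype and of treatment in females share groups, so their values are set side by side and not counted as separate evidence.

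Cd34, a sialomucin of capillary endothelium and blood progenitors that sinusoidal cells largely lack, moved furthest of the set. Its log2 level in untreated WT females was -0.60, -0.92, -0.81 and -0.85 on the 4 arrays, and in untreated dKO females 0.40, -0.15, 0.68 and 0.31. Treated WT females gave 0.35, 0.56, 1.0 and 0.62, and treated dKO females 2.26, 3.46, 1.99 and 2.74. Treated WT males gave 1.11, 1.94, 1.11 and 1.55, and treated dKO males 2.12, 1.93, 2.26 and 2.24. Every dKO array was above every WT array of the same treatment in females, whereas in males dKO replicate 2 lay just under WT replicate 2. The rise in dKO was 1.1 ± 0.25 (SE) on the log2 scale in untreated females (2.15-fold, limma adjusted p = 0.00768) and 1.98 ± 0.25 in treated females (3.94-fold, adjusted p = 1.49e-05). In treated males it was 0.71 ± 0.25 (1.63-fold, adjusted p = 0.0444). The male rise was the less steady: 6 of the 8 fits that left out 1 array lost the call (WT replicate 1, 3 or 4 or dKO replicate 1, 3 or 4 left out), with adjusted p from 0.065 to 0.13. In females no fit without 1 array lost it, and with only replicates 1 and 3 of the treated dKO females the rise was 1.49 ± 0.23 (adjusted p = 0.000405).

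Treatment also went with more Cd34, in both genotypes. The rise was 1.43 ± 0.25 in WT females (2.69-fold, adjusted p = 0.000838) and 2.30 ± 0.25 in dKO females (4.93-fold, adjusted p = 4.51e-06), with groups apart in both. With dKO replicates 1 and 3 alone the rise in dKO females was 1.81 ± 0.23 (adjusted p = 0.000113). A larger rise with treatment in dKO females was not shown: the difference between the 2 rises was 0.87 ± 0.36 (adjusted p = 0.158). The authors' deposited table lists Cd34 at 4.34-fold higher in treated dKO than in treated WT females and at 1.72-fold in treated males, close to the values fitted here. The probe lies at chr1:196787392-196787451 of mm9, the build of the array files.

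Plvap, which builds the diaphragms that close the pores of capillary endothelium, rose in dKO among treated females. Its log2 levels were 1.31, 1.87, 1.12 and 1.38 in treated WT females and 2.21, 2.68, 1.55 and 2.16 in treated dKO females. The groups overlapped, since dKO replicate 3 lay under WT replicate 2, and the rise was 0.73 ± 0.22 (1.66-fold, adjusted p = 0.0187). Without dKO replicate 2 it was 0.55 (adjusted p = 0.0849), without WT replicate 3 it was 0.63 (adjusted p = 0.0535), and with dKO replicates 1 and 3 alone it was 0.46 (adjusted p = 0.276). In untreated females the difference was 0.27 ± 0.22 and in treated males 0.35 ± 0.22, and neither passed the test.

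Vwf, the clotting glycoprotein stored by endothelium of larger vessels and by platelets, was lowest in untreated WT females. Their levels were 0.22, 0.34, 0.18 and 0.08, all below the untreated dKO females at 1.07, 0.44, 1.11 and 0.81. The rise in dKO was 0.65 ± 0.20 (1.57-fold, adjusted p = 0.0403). It sat close to the threshold: 7 of the 8 fits that left out 1 array lost it, with every array but dKO replicate 2, at adjusted p from 0.0532 to 0.119. Treated WT females, at 0.49, 0.58, 1.47 and 0.82, were also above the untreated, by 0.64 ± 0.20 (adjusted p = 0.0305), and 0.43 (adjusted p = 0.133) without treated replicate 3. The other 4 fits that lost this call left out treated replicate 4 or untreated replicate 1, 3 or 4, at adjusted p from 0.0572 to 0.0785. In treated females the dKO minus WT difference was 0.42 ± 0.20 (adjusted p = 0.117) and in treated males 0.37 ± 0.20 (adjusted p = 0.179), and the female value was 0.25 with dKO replicates 1 and 3 alone. A second Vwf probe, which followed the first with r = 0.974 over the 24 arrays, gave 0.62 in treated females (adjusted p = 0.0317).

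**Figure D1:**
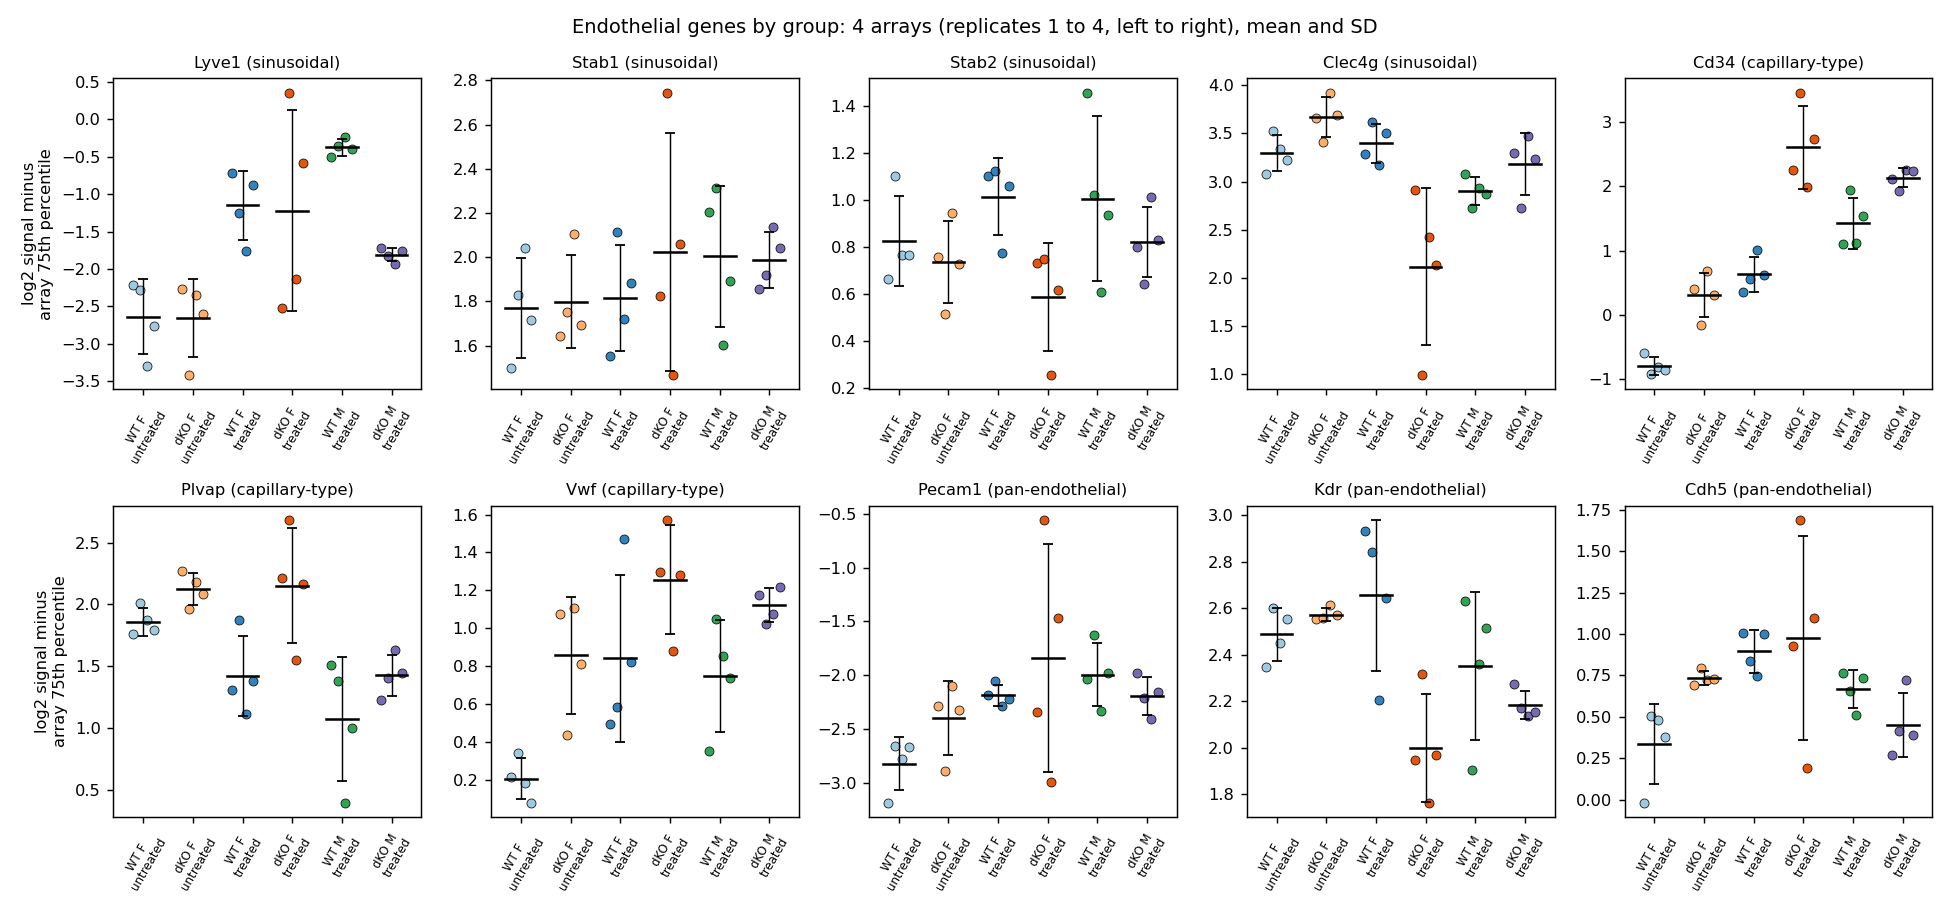
Log2 level (signal minus the array's 75th percentile) of the 10 genes in each group, with a point per array in the order of replicates 1 to 4, the mean as a horizontal line and the SD as a bar; each panel has its own vertical scale. Clec4g is lowest in treated dKO females (2.12 ± 0.82) and Cd34 highest there (2.61 ± 0.64), while Lyve1 spreads from -2.53 to 0.36 within that group.

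Of the sinusoidal genes, Clec4g, a C-type lectin of the sinusoidal lining also known as LSECtin, showed the clearest fall. Treated dKO females gave 2.92, 0.99, 2.43 and 2.13, and treated WT females 3.29, 3.62, 3.17 and 3.5. The groups did not overlap, and the fall in dKO was by 1.28 ± 0.27 on the log2 scale (2.43-fold, adjusted p = 0.0015). Replicate 2 was the lowest array, and with dKO replicates 1 and 3 alone the value was -0.73 ± 0.20 (adjusted p = 0.0222). No such difference passed the test elsewhere: untreated dKO females (3.66, 3.41, 3.92 and 3.69) differed from untreated WT (3.08, 3.52, 3.34 and 3.23) by 0.38 ± 0.27. Treated dKO males (3.30, 2.73, 3.47 and 3.24) differed from treated WT males (3.08, 2.72, 2.93 and 2.87) by 0.28 ± 0.27. The groups overlapped in both pairs. The genotype difference itself differed between the sexes in treated mice, by 1.56 ± 0.38 (adjusted p = 0.0119), and between treated and untreated females, by -1.66 ± 0.38 (adjusted p = 0.0169). The latter was -1.10 ± 0.26 (adjusted p = 0.0344) with dKO replicates 1 and 3 alone. Within dKO females treatment went with a fall of Clec4g by 1.55 ± 0.27 (2.94-fold, adjusted p = 0.000267), or by 1.0 ± 0.20 (adjusted p = 0.003) with treated replicates 1 and 3 alone, and in WT females the difference was 0.10 with a 95% confidence interval of -0.45 to 0.66. A second, dim Clec4g probe followed the first less closely (r = 0.496), was above background on 10 arrays and fell only in this comparison of treatment in dKO females, by 1.14 (adjusted p = 0.00876). It was designed on another transcript record and lies at chr8:3707219-3707278 of mm9. Whether it reads the same transcript was not tested. The probe used lies at chr8:3716182-3716241 of mm9.

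Lyve1, a hyaluronan receptor of sinusoidal and lymphatic endothelium and of some macrophages, behaved unlike Clec4g. It was highest in treated WT males, at -0.50, -0.36, -0.24 and -0.39, and all 4 treated dKO males were lower, at -1.73, -1.82, -1.93 and -1.76. The fall was by 1.44 ± 0.44 (2.70-fold, adjusted p = 0.0218), and by 1.46 to 1.54 within each of the 3 slides that held both groups. The call was lost when WT replicate 3 (adjusted p = 0.0526) or dKO replicate 3 (adjusted p = 0.0506) was left out. A second Lyve1 probe, with r = 0.919 to the first, gave -1.42 (adjusted p = 0.0456). In treated females the levels were -0.71, -1.25, -1.76 and -0.88 in WT and -2.53, 0.36, -2.14 and -0.58 in dKO. Replicates 2 and 4 of the dKO group lay above all WT arrays and replicates 1 and 3 below them, so the mean difference of -0.07 ± 0.44 describes neither pair. With replicates 1 and 3 alone it was -1.18 ± 0.32. That pair was set apart partly by its low Lyve1, so this value follows from the choice of arrays and is no test.

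Lyve1 was low in untreated females of either genotype, at -2.22, -2.28, -3.29 and -2.76 in WT and -2.27, -3.42, -2.34 and -2.60 in dKO. All 4 treated WT females were above them, with a rise of 1.49 ± 0.44 (2.81-fold, adjusted p = 0.026). Of 8 fits that left out 1 array, 4 lost this call (treated replicate 1 or 4, untreated replicate 3 or 4), at adjusted p from 0.0612 to 0.0775. The rise in dKO females, 1.44 ± 0.44 (adjusted p = 0.0154), rested on treated replicates 2 and 4: with the other pair alone it was 0.33 (adjusted p = 0.525). It was also lost without treated replicate 2 (0.91, adjusted p = 0.0733), treated replicate 4 (1.22, adjusted p = 0.0575) or untreated replicate 2 (1.18, adjusted p = 0.0592).

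Stab1 and Stab2 are the paired scavenger receptors of the sinusoid, which take up hyaluronan and modified proteins. Stab2 read 1.1, 1.12, 0.77 and 1.06 in treated WT females and 0.73, 0.75, 0.25 and 0.62 in treated dKO females. The groups were apart, and the fall was small, by 0.43 ± 0.16 (1.34-fold, adjusted p = 0.0453). It sat at the threshold: the call was lost with dKO replicates 1 and 3 alone (-0.52, adjusted p = 0.0977), with slide as a block (adjusted p = 0.0764) and with the replicate number as a block (adjusted p = 0.0555), and it held in 6 of 20 alternative settings. Of the fits that left out 1 array, 6 of 8 lost it (WT replicate 1, 2 or 4, dKO replicate 2, 3 or 4), at adjusted p from 0.0508 to 0.127. Stab1 passed the test in none of the 9 comparisons. Its levels over all arrays ran from 1.47 to 2.74, both ends of that range in treated dKO females, and the dKO minus WT difference there had a 95% interval of -0.24 to 0.65. It was 0.21 with all arrays and -0.17 with dKO replicates 1 and 3 alone, without a call in either. In treated males the interval was -0.46 to 0.43.

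Among the pan-endothelial genes only Kdr passed a test. Kdr encodes VEGFR2, the main receptor through which VEGF acts on endothelium, and its levels were 2.93, 2.84, 2.20 and 2.65 in treated WT females and 1.95, 2.32, 1.76 and 1.97 in treated dKO females. WT replicate 3 fell inside the dKO range. The fall in dKO was by 0.66 ± 0.15 (1.58-fold, adjusted p = 0.00355), and with dKO replicates 1 and 3 alone the value was -0.80 ± 0.18 (adjusted p = 0.00681). Untreated dKO females, at 2.55, 2.56, 2.61 and 2.57, were all above the treated ones, a fall with treatment by 0.57 ± 0.15 (adjusted p = 0.00639), and by 0.72 ± 0.18 (adjusted p = 0.0121) with treated replicates 1 and 3 alone. In treated males the dKO minus WT difference was -0.17 ± 0.15 (adjusted p = 0.468), and the test of the sexes against each other gave 0.49 ± 0.22 (adjusted p = 0.137).

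Pecam1, an adhesion molecule of endothelial junctions that platelets carry too, read -2.34, -0.56, -2.99 and -1.47 in treated dKO females and -2.18, -2.05, -2.29 and -2.22 in treated WT females. Replicates 2 and 4 were again the high arrays, and the difference of 0.35 ± 0.33 did not pass the test. With dKO replicates 1 and 3 alone, a pair set apart partly by Pecam1, its sign turned, to -0.48 ± 0.22 (adjusted p = 0.195), again without a call. Cdh5, the cadherin of endothelial junctions, differed by 0.08 ± 0.20 in treated females, with a 95% interval of -0.34 to 0.50, and by -0.34 ± 0.18 (adjusted p = 0.244) with dKO replicates 1 and 3 alone. The interval was -0.64 to 0.20 in treated males and -0.02 to 0.82 in untreated females. Untreated dKO females (0.69, 0.79, 0.72 and 0.73) lay above untreated WT females (-0.02, 0.50, 0.48 and 0.38) in Cdh5 without passing the test (adjusted p = 0.231).

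**Figure D2:**
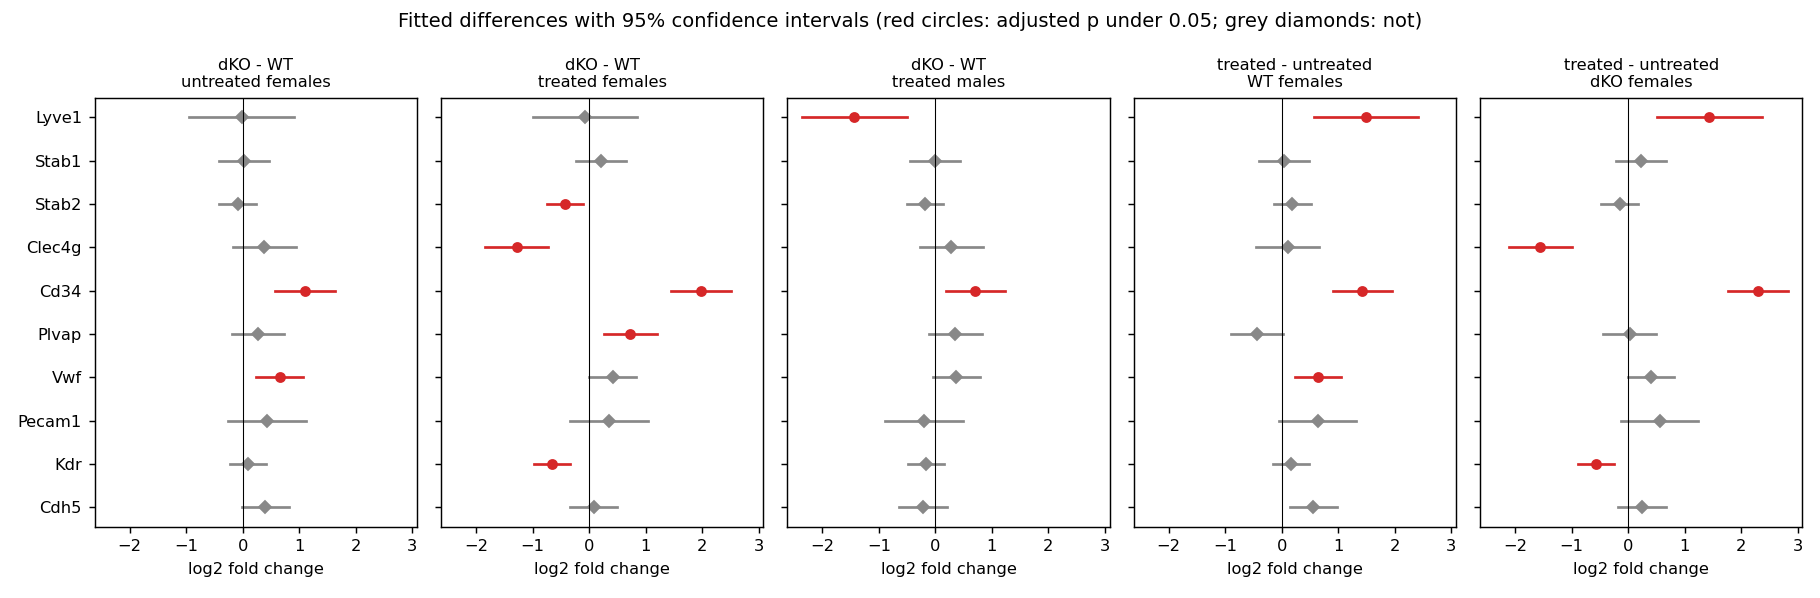
Fitted log2 fold change of each gene (horizontal axis, with 95% confidence intervals) in the 3 comparisons of genotype and the 2 of treatment; red circles passed an adjusted p of 0.05 and grey diamonds did not. Cd34 lies to the right of 0 in all 5 panels (0.71 to 2.30), and Clec4g lies clearly to the left only in the panels that hold treated dKO females (-1.28 and -1.55).

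To set the classes against each other on each array, every gene was centred on its mean over the 24 arrays, and the mean of the 3 capillary-type genes was subtracted from the mean of the 4 sinusoidal genes. This balance averaged 0.53 ± 0.13 (SD, n = 4) in untreated WT females, 0.45 ± 0.36 in treated WT females and 0.44 ± 0.26 in treated WT males. It was -0.07 ± 0.06 in untreated dKO females, -0.37 ± 0.06 in treated dKO males and -0.99 ± 0.18 in treated dKO females. In all 3 settings the dKO arrays lay below the WT arrays, and treated WT female replicate 3, at -0.08, was the lowest WT array. The difference was -1.43 for treated females, -0.82 for treated males and -0.60 for untreated females. In untreated females the capillary-type mean was higher by 0.67 and the sinusoidal mean differed by 0.07, while in treated females the shifts were 1.04 and -0.39 and in treated males 0.48 and -0.34.

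The balance rests on few genes. Without Cd34 the difference in treated females was -0.97 and in untreated females -0.38, and without Lyve1 that in treated males was -0.45. With only replicates 1 and 3 of the treated dKO females it was -1.38. Replicates 2 and 4, the arrays high in Lyve1, were also the lowest of that group in Clec4g and the highest in Cd34. Treatment moved the balance by -0.08 in WT females, where Lyve1 and Cd34 rose together, and by -0.92 in dKO females, a value that was -0.22 without Cd34. The balance is a description of the chosen genes and was not tested.

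**Figure D3:**
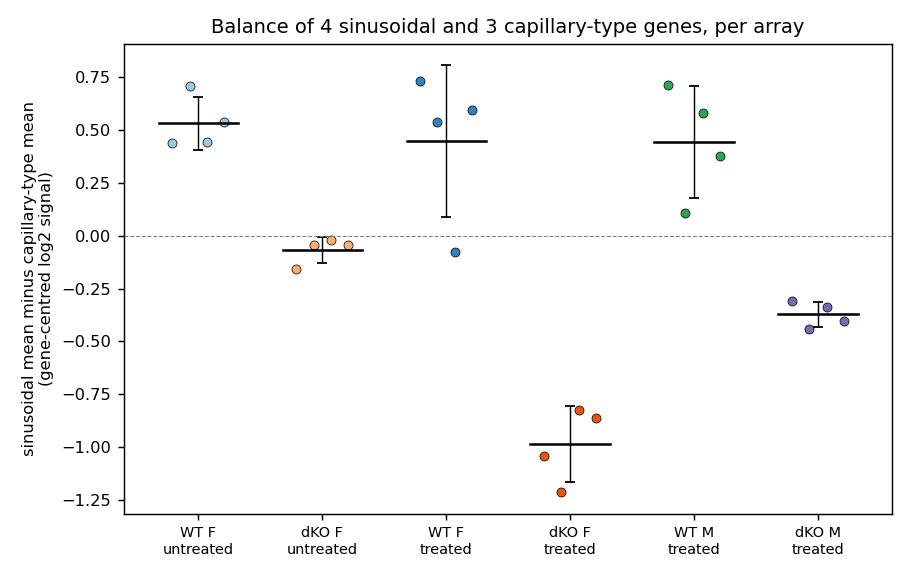
Sinusoidal minus capillary-type mean of the gene-centred log2 levels on each array, by group, with the mean as a line and the SD as a bar; the dashed line is 0. The WT arrays sit between -0.08 and 0.73, the untreated dKO females just under 0, the treated dKO males between -0.44 and -0.31 and the treated dKO females between -1.21 and -0.82.

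Further genes of the same vessel types were followed in lists that leave the 10 genes out. Some genes, such as Apln, Flt4, Tek and Dll4, stand in more than 1 list, so the list counts are not separate evidence. Of all genes, 13.4% were called higher in dKO and 16.4% lower in treated females. In treated females, 5 of 11 other sinusoidal genes fell in dKO and 1 rose, with a median log2 change of -0.51, against -0.07 over all genes. Ehd3, an endocytic protein of sinusoidal cells, fell by 1.16 ± 0.25, Oit3, a secreted protein of these cells, by 1.03 ± 0.22, the nuclease gene Dnase1l3 by 0.84 ± 0.23 and F8, coagulation factor VIII, by 0.79 ± 0.17 (adjusted p = 0.0023, 0.0018, 0.0100 and 0.0018). The gene that rose was Flt4, the receptor of VEGFC, which lymphatic endothelium also carries, by 0.69 ± 0.24; it is named after its value was seen. With dKO replicates 1 and 3 alone, 2 of 11 fell, 0 rose and the median was -0.58. That fit called 2241 of all 19290 genes in either direction, against 5740 with all arrays. Its pair of arrays was set apart partly by low Lyve1, itself a sinusoidal gene, so these counts are no test.

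In the same comparison 7 of 17 measured capillary-type and large-vessel genes rose and 1 fell, with a median of 0.72. Cav1, the coat protein of caveolae, rose by 2.43 ± 0.52, Apln, the apelin ligand of sprouting tip cells, by 2.06 ± 0.59, Gja5, an arterial connexin, by 2.01 ± 0.35 and Esm1, a tip-cell proteoglycan, by 1.54 ± 0.57. This depended on the pair of arrays that stood apart: with dKO replicates 1 and 3 alone 2 of 17 rose, 1 fell and the median was 0.18. Of 11 vascular basement membrane genes 8 rose and 1 fell, with a median of 1.18, led by Nid1 at 2.21 ± 0.32, Col4a2 at 2.06 ± 0.41, Col4a1 at 2.05 ± 0.46 and Lama5 at 1.95 ± 0.26. With replicates 1 and 3 alone 4 of these 11 rose, 0 fell and the median was 0.57. Such collagens and laminins are also made by stellate and bile duct cells.

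Of 24 other pan-endothelial genes 1 rose and 4 fell in treated dKO females, against 13.4% of all genes called higher and 16.4% lower. With all 4 arrays the list thus stood near or under the background. Those that fell included the angiopoietin receptor Tek, by 0.93 ± 0.17, and Clec14a, by 0.79 ± 0.24. Of 11 genes listed as factors that sinusoidal cells send to hepatocytes 3 fell and 1 rose. Bmp2 fell by 1.47 ± 0.24, Wnt2 by 1.21 ± 0.33 and Wnt9b by 0.97 ± 0.33. Dkk3, a secreted protein of the Dickkopf family, rose by 2.42 ± 0.27. Of 14 VEGF, angiopoietin and apelin genes 5 rose and 2 fell, and of 11 Notch genes 4 rose and 1 fell, with Jag2 at 2.18 ± 0.57 and Hey1 at 1.32 ± 0.23. With dKO replicates 1 and 3 alone the pan-endothelial list gave 0 higher and 8 lower with a median of -0.50, the angiocrine list 2 and 1, the VEGF list 2 and 3 and the Notch list 2 and 0. Of all 19290 genes 2241 were called there in either direction. That pair of arrays was set apart partly by low Pecam1, itself a pan-endothelial gene. The 8 of 24 pan-endothelial genes lower may thus follow in part from the choice of arrays and are no test.

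In treated males 14.4% of all genes were called higher and 10.9% lower. There 1 of 11 sinusoidal genes rose in dKO, Maf by 0.33 ± 0.11, and 0 fell, with a median of 0.18. Of the 17 capillary-type genes Vcam1, a leukocyte adhesion receptor, rose by 1.29 ± 0.23 and Efnb2 by 0.59 ± 0.19, while Gja5 fell by 1.17 ± 0.35. Of 11 angiocrine factors 4 rose, Dkk3 by 2.25 ± 0.27, the chemokine Cxcl12 by 1.54 ± 0.26, Bmp6 by 1.47 ± 0.44 and Hgf by 0.83 ± 0.19, and 0 fell. Hgf is also counted among the stellate cell, fibroblast and pericyte genes given below. Of 24 pan-endothelial genes 1 fell, Tie1 by 1.58 ± 0.26, and 0 rose. In untreated females 5.15% of all genes were called higher and 4.59% lower. There 0 of 11 sinusoidal genes were called by limma in either direction, with a median of 0.29. Of 17 capillary-type genes 3 rose, including Efnb2, a ligand of arterial endothelium, by 2.48 ± 0.19 and Podxl by 1.08 ± 0.30. Nid1 was also higher there, by 1.93 ± 0.32.

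**Figure D4:**
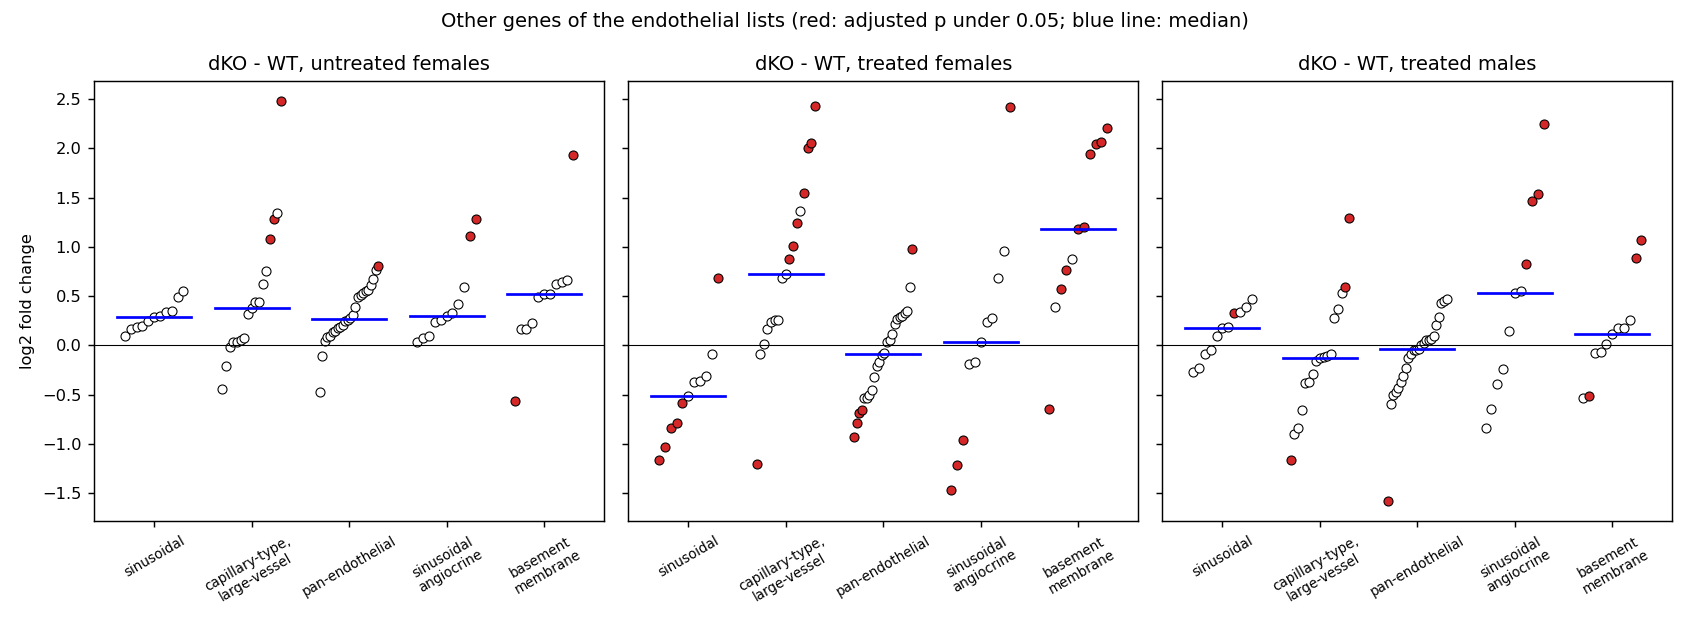
Log2 fold change, dKO minus WT, of each gene in 5 lists that leave out the 10 genes followed, in each of the 3 genotype comparisons; red points passed an adjusted p of 0.05, open points did not, and blue lines are list medians. In treated females the sinusoidal median is -0.51 and the basement membrane median 1.18 (-0.58 and 0.57 with dKO replicates 1 and 3 alone), against 0.18 and 0.11 in treated males.

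Genes of other cell types moved with these results. The list sums below add the linear signals of a list, each relative to the array's 75th percentile. Of all genes, 13.4% were called higher in dKO and 16.4% lower in treated females, and 14.4% and 10.9% in treated males. In untreated females these shares were 5.15% and 4.59%. For bile duct genes, 10 of 12 rose in treated dKO females and 10 of 12 in treated dKO males, and the sums were 76.6 to 251.7 in treated dKO females against 10 to 23.1 in WT, and 64.4 to 82.2 against 10.3 to 21.2 in males. For stellate cell, fibroblast and pericyte genes 9 of 15 rose and 1 fell in treated females, with sums of 160.4 to 220.2 against 104.3 to 134.1, and 8 of 15 rose and 0 fell in treated males, with 159.6 to 187.9 against 80.7 to 112.8. Hepatocyte genes, of which 5 of 13 fell and 0 rose in treated dKO females, summed to 1451.8 to 2770.2 against 2664.0 to 3345.6, and with dKO replicates 1 and 3 alone 1 of 13 fell, 0 rose and the median was -0.21. In that fit, which called 2241 of all 19290 genes, 10 of 12 bile duct genes and 7 of 15 stellate genes rose and 0 of either fell. In untreated dKO females 7 of 12 bile duct genes rose and 1 fell, with sums of 17.1 to 26.4 against 8.5 to 9.7, and 5 of 15 stellate genes rose and 0 fell, with 143.1 to 180.2 against 110.0 to 140.6. Of 15 macrophage and Kupffer genes 2 rose there and 0 fell, with sums of 156.8 to 218.3 against 58.8 to 115.6. In treated females 5 of the 15 rose and 1 fell, with sums of 178.1 to 424.9 against 184.4 to 302.9. With dKO replicates 1 and 3 alone 0 of the 15 rose and 1 fell, at a median of 0.04. Platelet genes, which bear on Vwf and Pecam1, gave 1 rise of 9 in treated females, Pf4 by 1.91, with sums of 4.0 to 5.9 against 2.5 to 3.0. Blood progenitor and leukocyte genes, 7 measured, bear on Cd34. Their sums averaged 2.78 in untreated dKO females against 1.46 in untreated WT females, without overlap. Treated WT females, at 3.34, also lay above untreated WT females without overlap. Treated dKO females averaged 5.17 and overlapped both treated WT and untreated dKO females. Treated dKO males averaged 3.08 against 2.84 in WT males, with overlap. The 6 lymphatic endothelial genes other than Lyve1 summed to 6.68 to 7.66 in treated dKO males against 4.26 to 5.72 in WT, where Lyve1 fell. Their sums were 3.55 to 9.61 against 6.69 to 7.77 in treated females and 9.64 to 11.43 against 8.02 to 10.28 in untreated females. The part of these cells in the endothelial results was not tested.

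For the sexes, treated WT males and females differed in 0 of the 10 genes by limma, with 1 at an unadjusted p under 0.05, against 6.05% of all genes called (3.26% higher in males and 2.8% lower), and 3 of 10 did not overlap, against 14.3%. The gene with the smallest adjusted p was Cd34, higher in males by 0.79 ± 0.25 (adjusted p = 0.0677), with the groups apart. In treated dKO mice 2 of 10 differed, against 20.5% of all genes (12.5% higher in males and 7.97% lower), and 0 of 10 had groups apart, against 19.5%. Clec4g was higher in males by 1.07 ± 0.27 (2.10-fold, adjusted p = 0.00878) and Plvap lower by 0.72 ± 0.22 (adjusted p = 0.0274). Neither call held without the arrays that stood apart: with dKO female replicates 1 and 3 alone the values were 0.51 (adjusted p = 0.149) and -0.45 (adjusted p = 0.370). The Plvap call was also lost in 6 of 8 fits that left out 1 array (male replicate 1, 2 or 4, female replicate 1, 2 or 4), at adjusted p from 0.05 to 0.117. Of the 11 other sinusoidal genes 6 were higher in dKO males than in dKO females and 0 lower, with Oit3 at 0.95 ± 0.22 and Ehd3 at 0.84 ± 0.25, and 0 of 11 were called with replicates 1 and 3 alone, at a median of 0.45. The latter fit called 1065 of all genes, against 3955 with all arrays.

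The genotype effect differed between the sexes for 2 of the 10 genes, Clec4g as given above and Cd34, against 12.6% of all genes (7.33% with a higher and 5.23% with a lower term). For Cd34 the rise in dKO was smaller in males than in females by 1.27 ± 0.36 (adjusted p = 0.0252). That difference was -0.78 (adjusted p = 0.165) with dKO female replicates 1 and 3 alone and -1.26 ± 0.40 (adjusted p = 0.0624) with slide as a block, and 4 of 16 fits that left out 1 array lost it (female WT replicate 1, female dKO replicate 4, male WT replicate 2 or male dKO replicate 2), at adjusted p from 0.0517 to 0.0575. For Clec4g the same setting gave 1.01 ± 0.26 (adjusted p = 0.0337), and no fit without 1 array lost the call. For genotype and treatment in females 1 of 10 genes passed, Clec4g, against 5.13% of all genes (2.45% higher and 2.68% lower), and Kdr came next at -0.74 ± 0.22 (adjusted p = 0.0513). With treatment alone, 3 of 10 genes were called in WT females, against 17.1% of all genes: Cd34, Lyve1 and Vwf rose (against 8.42% called higher) and 0 fell (against 8.65%), and 5 of 10 did not overlap (against 25.5%). In dKO females 4 of 10 were called, against 37.8%: Cd34 and Lyve1 rose (against 16.2%) and Clec4g and Kdr fell (against 21.6%), and 3 of 10 did not overlap (against 31.4%).

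Among the other genes followed with treatment, Esm1 rose by 3.94 ± 0.57 in WT and by 5.50 ± 0.57 in dKO females. Of the 17 capillary-type genes 6 rose and 0 fell in WT and 9 rose and 1 fell in dKO females. Sinusoidal genes went 1 up and 0 down of 11 in WT females, and 1 up and 6 down in dKO females, with Ehd3 falling by 1.44 ± 0.25 and Oit3 by 1.19 ± 0.22. Wnt2, a ligand of central-vein endothelium, fell by 2.33 ± 0.33 with treatment in dKO females. With dKO replicates 1 and 3 alone the dKO counts were 2 up and 1 down of 17 and 0 up and 3 down of 11. Of all genes 3171 were called in that fit, against 7283 with all arrays.

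The genes most like the sinusoidal mean over the 24 arrays were Plpp1, Unc45b, Ppp1r16b, Fgd5 and Tie1, with r from 0.82 to 0.90. Those most like the capillary-type mean were St3gal2, Map4k4, Gdpd5, Necap2 and Col3a1, each with r of about 0.97. None of the latter stands in the endothelial lists, and Col3a1 is in the stellate cell, fibroblast and pericyte list. Cd34 weighs most in that mean, as its levels ranged over 4.38, against 2.28 for Plvap and 1.49 for Vwf. These correlations are descriptions over arrays that share groups and slides. Within the set, Cd34 and Vwf ran together (r = 0.826), as did Stab1 and Pecam1 (r = 0.770), and Clec4g ran against Cd34 (r = -0.648) and against Lyve1 (r = -0.557). Plvap ran with neither Cd34 (r = -0.019) nor Vwf (r = 0.083), so the capillary-type genes did not move as 1 class. Within groups Plvap ran most closely with the sinusoidal genes Stab1 (r = 0.824) and Stab2 (r = 0.813), against 0.475 with Cd34.

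The arrays lay on 6 slides of 4, and position on the slide went with group: treated dKO females were all in position 4, treated WT females in positions 1 and 2, treated WT males all in position 1 and treated dKO males in positions 3 and 4. Treated dKO and treated WT arrays of a sex shared no position, so position and genotype cannot be told apart there. Treated and untreated dKO females shared none either, so position and treatment cannot be told apart in dKO females. With position as a numeric covariate 0 of 10 genes were called in treated females and 38 of all genes, with the Cd34 rise at 1.77 ± 0.55 (adjusted p = 0.208) and the Clec4g difference at -1.28 ± 0.58 (adjusted p = 0.408). For treatment in dKO females that fit called 2402 of all genes, against 7283 without it. There Kdr (-0.46, adjusted p = 0.152) and Lyve1 (1.69, adjusted p = 0.0773) lost their calls. Cd34 (2.20, adjusted p = 0.00132) and Clec4g (-1.55, adjusted p = 0.0149) kept theirs. In untreated females, where positions 2 and 3 held both genotypes, the Cd34 rise was 1.06 ± 0.28 (adjusted p = 0.0242). Within the slides that held both groups, Cd34 was higher in treated dKO females by 2.38 to 2.45 and Clec4g lower, at -2.18 to -1.16, on 2 slides each. The dKO arrays on those slides were replicates 2 and 4, the pair that stood apart, and replicates 1 and 3 shared no slide with a treated WT female array. In untreated females Cd34 was higher in dKO by 0.45 to 1.49 on 2 slides. With slide as a block the Cd34 rise in untreated females was 0.97 ± 0.28 (adjusted p = 0.0567), that in treated males 0.75 ± 0.27 (adjusted p = 0.0572) and the Lyve1 difference in treated males -1.35 ± 0.50 (adjusted p = 0.0601).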

How the data were processed

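Total RNA was amplified and labelled with Cy3, per the labels' protocols, and 24 scanner files were analysed, 4 in each of 6 groups taken from the sample titles. The authors deposited the intensity values of Agilent Feature Extraction, whose version is 10.5.1.1 per the file headers and 9.53 per the submitters' processing notes; gProcessedSignal is background-subtracted. The authors also deposited a table of linear fold changes (a signed ratio per comparison), from which a few values are quoted. Here each array's log2 signal was reduced by its 75th percentile over 43379 non-control spots (433 to 960 signal units), outlier spots were left out, repeated spots averaged, and 28051 probes kept that 4 or more of the 24 arrays marked as well above background. Where several probes named a gene, the brightest was used, giving 19290 genes. Symbols came from the files or, through accessions, from RefSeq for 26690 of 41174 probes. Group means were fitted over all 24 arrays with limma 3.58.1 in R 4.3.3, with Benjamini-Hochberg adjustment over all genes in each comparison and a threshold of 0.05, and the code was tested on simulated data. The intensity scale gives no counts, so the number of arrays limits the precision.

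The 10 genes and all lists were chosen with earlier results of these data known, and list counts carry no test of their own. From each list and comparison, at most 4 called genes are named, those of largest absolute change whose signal cleared background on each array of the higher group; the genes of like pattern are the 5 with the highest Pearson correlation to each class mean. Alternatives were normexp background, median or quantile scaling, other filters and probe rules, slide, position and replicate blocks, only the groups compared, and each array left out. The fit with replicates 1 and 3 of the treated dKO females was chosen after seeing the data.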

Additional observations from a re-analysis of the deposited data

Results flagged for a closer look

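For 2 of the 10 genes the genotype difference itself changed with sex or treatment. In treated mice the dKO minus WT difference of Cd34 was smaller in males than in females by an interaction term of -1.27 ± 0.36 on the log2 scale (limma adjusted p = 0.0252), with Cd34 higher in dKO in both sexes. This call was lost with slide as a fixed block (-1.26, adjusted p = 0.0624) and with dKO female replicates 1 and 3 alone (-0.78, adjusted p = 0.165). For Clec4g the same term was 1.56 ± 0.38 (adjusted p = 0.0119), with dKO below WT in females and no call in males. In females the Clec4g difference also changed with treatment, by -1.66 ± 0.38 (adjusted p = 0.0169). With replicates 1 and 3 alone both Clec4g terms kept their call, at 1.01 and -1.10, and the term for treatment lost it with array position as a covariate (adjusted p = 0.314), with normexp and with only the groups compared. All 3 involve the treated dKO females, whose arrays all lay in position 4. Of 66 sets of 4 arrays examined for a single array far from the rest, 0 had one beyond the 95% limit.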

How the results depend on the processing

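None of the calls on the 10 genes changed sign under the alternatives run; some differences without a call did. Counts of the 10 genes called in treated females were 5, and became 1 when the fit held only the groups compared and 0 with array position as a covariate. In treated males the count of 2 became 0 with array position or slide as a fixed block, and 1 with median centring, no filter on dim probes or the replicate block. In untreated females 2 became 0 with slide as a fixed block and 1 with array position, median centring, no filter, normexp or the replicate block. For genotype by treatment, 1 became 0 with array position, normexp or only the groups compared, and 2 with the filter on all 24 arrays or slide as a random block. For sex in treated dKO mice, 2 became 0 with only the groups compared or with replicates 1 and 3 alone, and 1 with slide as a fixed block. For sex by genotype, 2 became 1 under each of those 3 settings. For treatment, 3 in WT became 1 with slide as a fixed block, and 4 in dKO became 2 with array position. No shared deviation by replicate number was seen: deviations from the group means correlated at -0.01 on average between groups for the same number and 0.01 for different numbers. This cannot settle whether samples were paired, which the labels do not say. Arrays of 1 slide correlated at 0.14 and others at -0.02. With the replicate block, 4 genes were called in treated females and 1, 0, 2, 2, 3 and 4 for genotype by treatment, sex in WT, sex in dKO, sex by genotype and treatment in WT and dKO.

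Leaving out each array in turn gave 3 to 6 genes called in treated females, 0 to 2 in treated males, 1 to 2 in untreated females, 1 to 2 for genotype by treatment, 0 for sex in WT, 1 to 4 for sex in dKO, 1 to 3 for sex by genotype, 1 to 3 for treatment in WT and 3 to 7 in dKO. The balance ranged from -1.61 to -1.34 in treated females, -0.93 to -0.73 in treated males, -0.63 to -0.54 in untreated females, -0.18 to 0.11 for sex in WT, 0.54 to 0.67 for sex in dKO, -0.18 to 0.09 for treatment in WT and -0.97 to -0.84 in dKO.

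The balance depended on its genes. In treated females it was -0.97 without Cd34, -1.14 without Clec4g and -1.75 without Vwf, and in treated males -1.02 without Clec4g and -0.45 without Lyve1. In untreated females it was -0.47 within slides, -0.38 without Cd34, -0.70 without Clec4g and -0.80 without Plvap. For sex in WT it was 0.39 within slides and 0.33 without Cd34, and in dKO 0.31 without Clec4g, 0.87 without Lyve1, 0.47 without Plvap and 0.77 without Vwf. For treatment in WT it was 0.36 without Cd34, -0.43 without Lyve1 and -0.57 without Plvap, and in dKO -0.22 without Cd34, -0.40 without Clec4g, -1.40 without Lyve1, -1.36 without Plvap and -1.17 without Vwf.

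Over all genes, 5740 were called in treated females, with 38 under array position, 2089 with only the groups compared and 2241 with replicates 1 and 3 alone, which also gave 3171 against 7283 for treatment in dKO, 1065 against 3955 for sex in dKO, 740 against 2422 for sex by genotype and 332 against 990 for genotype by treatment. Normexp gave 730 against 1879 in untreated females, 2560 against 4867 in treated males, 411 against 990 for genotype by treatment, 514 against 1168 for sex in WT, 2275 against 3955 in dKO, 1315 against 2422 for sex by genotype and 1878 against 3293 for treatment in WT. Calls were 2576 higher and 3164 lower in treated females, and 1731 and 5417 with normexp; in treated males 2769 and 2098, and 1777 and 3024 with median centring. Median centring also moved the split from 2417 and 1538 to 1506 and 1555 for sex in dKO, from 1413 and 1009 to 691 and 1016 for sex by genotype, and from 1625 and 1668 to 1249 and 2266 for treatment in WT. The median of all genes moved from 0.04 to -0.09 with median centring in treated males, and with normexp from -0.07 to -0.24 in treated females, -0.06 to 0.09 for treatment in WT, 0.11 to 0.23 for sex by genotype and -0.02 to -0.16 for genotype by treatment. The cause of these shifts was not tested. Arrays of 4 a group limit what can be called.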

Other observations

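Treatment of WT females went with a rise of several vessel genes not described above. Ackr1, a chemokine-binding receptor of venules, rose by 1.44 ± 0.27 on the log2 scale (limma adjusted p = 0.0013), Vcam1 by 1.13 ± 0.23 and Ly6c1 by 1.59 ± 0.54. The neuropilins Nrp1 and Nrp2, co-receptors for VEGF, fell by 1.21 ± 0.26 and 1.02 ± 0.15. Fli1, an ETS factor of endothelium and blood cells, rose by 0.87 ± 0.25. In the same comparison 7 of 15 macrophage and Kupffer genes rose and 0 fell, against 8.42% of all genes called higher and 8.65% lower. The part of macrophage genes in these values was not tested.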
